A study of Mus musculus with 36 samples.

Results

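The genes described here encode proteins of central nervous system myelin or serve as markers of the oligodendrocytes that make it. They were chosen by name, from knowledge of this cell type and not from a measured value, though earlier results of these data were known. They are Mbp, Mog, Mag, Mobp, Cnp, Cldn11, Mal, Opalin and Ugt8a. All 9 were found among the 24060 gene symbols of the RNA count tables, and all 9 were among the 14405 genes that passed the filter on low counts. In the table of H2A.Z peaks, 8 of 20213 regions carried 1 of these symbols as their nearest gene, and these belonged to 7 of the 9 genes.

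The study measured RNA and the histone variant H2A.Z in the hippocampus of C57BL/6J mice with and without training, at 2 ages. Old conditioned mice, 15.5 months of age, had been fear conditioned for 5 min, during which 3 shocks (0.5 mA, 2 s each) were given, and the brains were frozen 30 min later. Old naive mice of 15.5 months had no training. Young conditioned mice had the same training at 2.5 months of age, and young naive mice of 2.5 months had none. Each group had 3 RNA libraries and 3 H2A.Z libraries, and the labels record no genetic change and no drug in any group. Whether 1 animal gave 1 library is not stated in the labels, and the p-values therefore reflect variation among libraries, which may be technical in part. A library is called here by its group and its title number.

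Oligodendrocytes wrap axons in compacted sheets of their own membrane. MBP and CNP act on the cytoplasmic face of that membrane, MBP by zipping apposed leaflets together and CNP by keeping cytoplasmic channels open. MOG, MAG and OPALIN are surface or membrane glycoproteins, MAG at the inner face next to the axon and MOG on the outermost turn, and MOBP is a small basic protein of the compact sheath. CLDN11 forms the tight junctions between turns, MAL sorts lipids and proteins on their way to the sheath, and UGT8A makes galactosylceramide, the characteristic myelin lipid. In the hippocampus these cells lie among the neurons and, more densely, in the fibre tracts along its edges.

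The 12 RNA libraries held 9410843 to 13350561 counts. A library held 113 to 257 counts of Opalin, the least counted of the 9 genes, and 7849 to 15894 counts of Mbp, the most counted. Together the 9 genes took 0.137% to 0.241% of the counts of a library. The label hippocampus was checked with 8 CA1 marker genes, whose summed level lay between 687 and 995 CPM (counts divided by the scaled total of the library) in all libraries. Among genes marking Schwann cells, which make peripheral myelin, Pmp2 was at 0 in 9 libraries, with a mean level of 0.0216 CPM. Prx and Ncmap averaged 0.402 and 0.307 CPM, and Cdh19 averaged 10.1 CPM.

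All 9 genes had their highest group mean in young naive mice. The lowest group mean was that of old conditioned mice for 7 genes and that of young conditioned mice for Mbp and Opalin. Old naive mice came second for the 6 genes Mbp, Mog, Mag, Mobp, Cnp and Opalin, while young conditioned mice came second for Cldn11, Mal and Ugt8a. None of the 9 genes had an adjusted p under 0.05 in any comparison of 2 groups that was tested (edgeR's quasi-likelihood test with Benjamini-Hochberg adjustment over 14405 genes). Neighbouring groups in these orders had overlapping libraries, except old conditioned and old naive mice for Mal. Young conditioned and old naive mice, neighbours for 7 genes, were not compared by a test. In this bulk tissue, fewer oligodendrocytes and less of these RNAs per oligodendrocyte cannot be told apart.

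**Figure D1:**
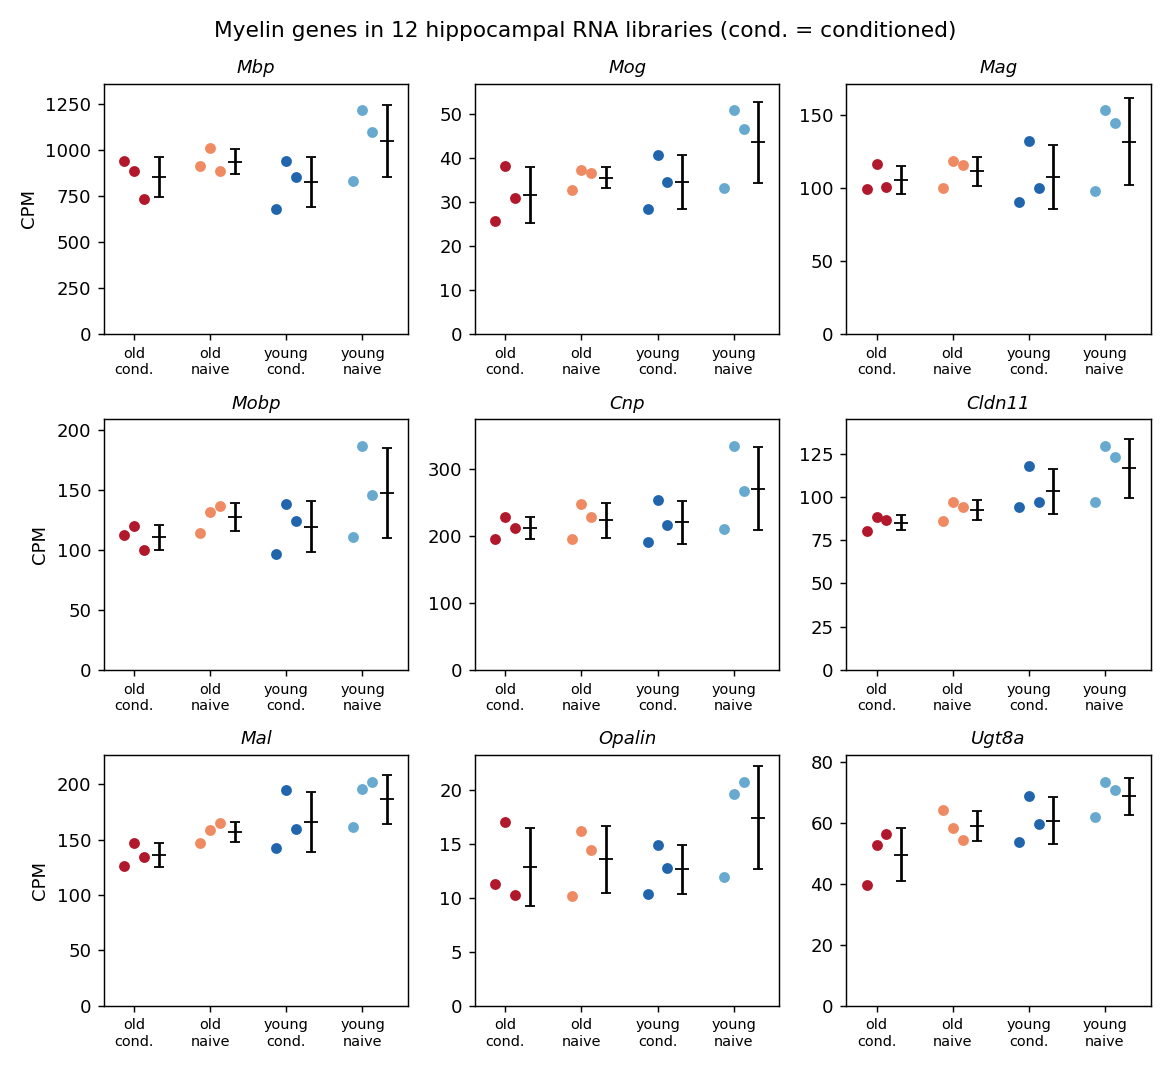
Level of each gene in CPM (vertical axis, starting at 0) in the 12 libraries; coloured points are libraries, ordered by title number within a group, and black marks show the group mean and SD (n = 3). Young naive mice had the highest mean for all 9 genes, and their 3 libraries were also spread widely, with library 79 below libraries 81 and 83 in every panel.

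Training was compared first, since the design asks how learning changes expression. After conditioning, all 9 genes were lower than in naive mice at both ages, by small amounts that did not pass the test. The median log2 difference of the 9 genes, conditioned minus naive, was -0.30 in young mice, -0.14 in old mice and -0.22 averaged over ages, against -0.0063, -0.0022 and 0.00038 for all genes tested. The median in young mice was -0.13 with naive library 81 left out, -0.18 with conditioned library 73 left out and -0.47 with naive library 79 left out. In old mice it was -0.08 without conditioned library 61, -0.08 without naive library 69 and -0.27 without conditioned library 63. None of the 9 was called in young mice, where 0.0278% of all genes were called, in old mice, where 0.0139% were called, or over both ages, where 0.0764% were called. At an unadjusted p under 0.05, without correction for the number of genes, 4 of the 9 were lower in young mice, where 3.18% of all genes were, 0 were lower in old mice, where 3.69% were, and 5 were lower over both ages, where 4.17% were. The 9 genes varied together from library to library (median pairwise Pearson correlation 0.835), so such counts are not of independent genes. DESeq2 also called none of the 9 in these 3 comparisons.

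Mbp, the gene of the major compaction protein, had 940.2, 883 and 732 CPM in old conditioned mice and 915, 1011 and 883 CPM in old naive mice. In young mice it had 677, 942 and 855 CPM after conditioning, against 832, 1214 and 1097 CPM in naive animals. The groups overlapped at both ages. Its log2 difference was -0.35 (SE 0.13, adjusted p 0.73) in young and -0.14 (SE 0.13, adjusted p 0.83) in old mice by edgeR's quasi-likelihood test, conditioned minus naive.

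Cnp, whose product counteracts compaction, had 195.2, 229 and 211 CPM in old conditioned mice, against 195.5, 247 and 228 CPM in old naive mice. In young mice it had 191, 254 and 216 CPM after conditioning and 210.0, 334 and 267.5 CPM without. The young naive library 81, at 334 CPM, stood above all others. The log2 difference was -0.30 (SE 0.14, edgeR adjusted p 0.75) in young and -0.08 (SE 0.14, edgeR adjusted p 0.92) in old mice.

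Among the surface glycoproteins, Opalin had the widest interval at both ages, and in young mice also the point difference farthest from 0. It had 11.3, 17.0 and 10.2 CPM in old conditioned mice and 10.2, 16.2 and 14.4 CPM in old naive mice. In young mice the values were 10.3, 14.9 and 12.8 CPM after conditioning and 11.98, 19.6 and 20.8 CPM in naive animals. The groups overlapped at both ages, and old conditioned mice held 2 libraries under 12 CPM and each other group 1. The log2 difference of Opalin in young mice was -0.48 (95% interval -0.96 to -0.0027, edgeR adjusted p 0.75), and in old mice it was -0.07 (95% interval -0.56 to 0.41, edgeR adjusted p 0.96). Mog and Mag, at 25.7 to 50.7 CPM and 90.9 to 153 CPM over the libraries, had differences of -0.34 and -0.30 in young mice and of -0.17 and -0.08 in old mice. Mobp, at 96.4 to 187 CPM, had -0.31 in young and -0.20 in old mice.

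The differences of the junction, trafficking and lipid genes with training in young mice lay nearer to 0. They were -0.18 for Cldn11, -0.17 for Mal and -0.18 for Ugt8a on the log2 scale, each with an SE of 0.10 to 0.12. In old mice Ugt8a had -0.25 (SE 0.12, edgeR adjusted p 0.70) and Mal -0.21 (SE 0.11, edgeR adjusted p 0.71). Mal had 126, 147 and 135 CPM in old conditioned mice, against 147.5, 159 and 165 CPM in old naive mice. These groups did not overlap, by a margin of 147.4 against 147.5 CPM between the nearest libraries, and 6.22% of all genes lay apart in this direction in that comparison.

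**Figure D2:**
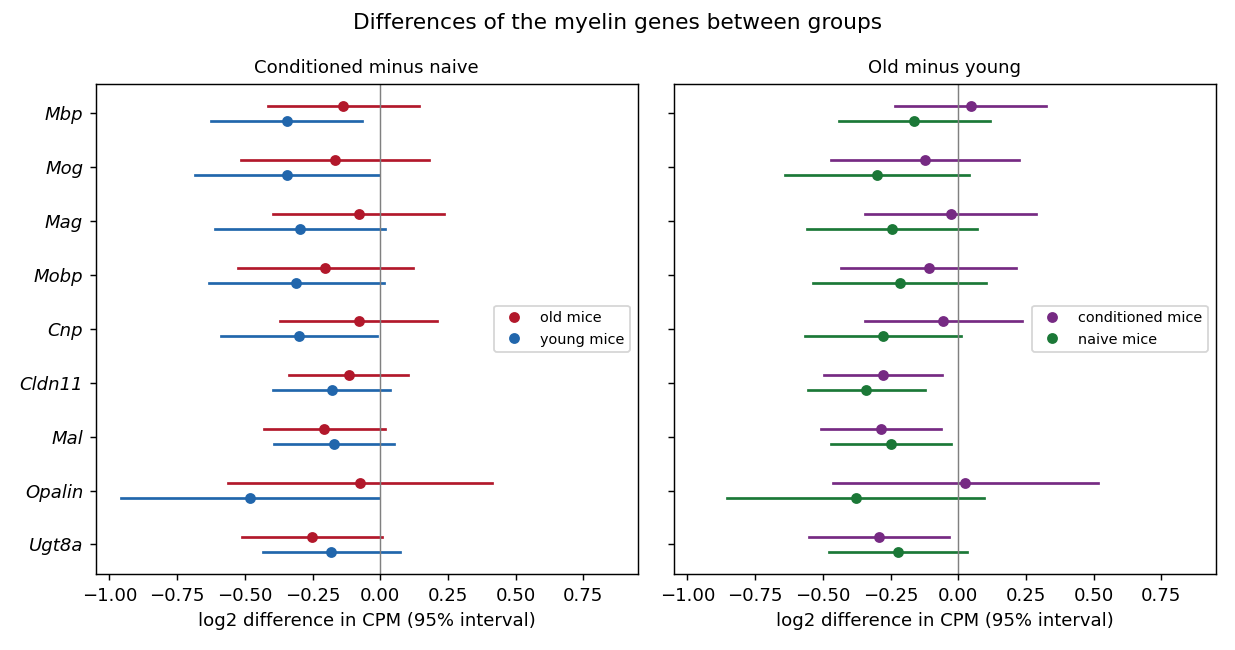
Log2 differences with 95% intervals (edgeR, n = 3 libraries a group) for conditioned minus naive mice at each age (left) and old minus young mice in each condition (right). All 18 training differences lie below 0, and on the right the intervals of Cldn11 and Mal lie wholly below 0 in both conditions, with Cldn11 at -0.28 in conditioned and -0.34 in naive mice.

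With age, all 9 genes had lower means in old mice averaged over conditions, again by amounts that did not pass the test. Cldn11, Mal and Ugt8a were lower in old mice by similar amounts in both conditions. In conditioned mice the log2 difference was -0.12 for Mog, -0.11 for Mobp and -0.06 to 0.05 for Mbp, Mag, Cnp and Opalin. Each of these last genes, Mog and Mobp included, changed sign there when some single library was left out. The genes were sorted after their values were seen, and none of the 9 had an interaction with an unadjusted p under 0.05 (edgeR). Averaged over conditions, old minus young, the median of the 9 genes was -0.18 against -0.0033 for all genes tested. Leaving out old conditioned library 63 gave a median of -0.28, leaving out young naive library 79 gave -0.27 and leaving out young conditioned library 75 gave -0.11. None of the 9 was called in naive mice, where 0.0555% of all genes were, in conditioned mice, where 0.0347% were, or over both conditions, where 0.375% were. At an unadjusted p under 0.05, 2 of the 9 were lower in naive mice, where 5.28% of all genes were, 3 in conditioned mice, where 7.14% were, and 3 over both conditions, where 9.27% were.

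Cldn11 came nearest to the threshold. It had 80.2, 88.4 and 86.8 CPM in old conditioned mice, against 94.2, 118 and 97.3 CPM in young conditioned mice. In naive mice it had 86.05, 96.8 and 94.1 CPM in old and 97.0, 129 and 123 CPM in young animals. All 3 old libraries lay below all 3 young libraries in each condition, as did 11.8% of all genes in conditioned and 6.35% in naive mice. The nearest libraries were 96.8 CPM in old naive and 97.0 CPM in young naive mice. Over both conditions its log2 difference was -0.31 (SE 0.072, a level 0.808 times that of young mice), with an adjusted p of 0.0735 in edgeR's quasi-likelihood test. DESeq2 gave 0.0109, edgeR without the filter on low counts gave 0.0227, and edgeR without young naive library 79 gave 0.0184.

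Mal had 126 to 165 CPM over the 6 old libraries (median 147.5 CPM) and 142 to 202 CPM over the 6 young libraries (median 178 CPM), ranges that overlapped. Its log2 difference was -0.27 (SE 0.074, edgeR adjusted p 0.113), and the adjusted p was 0.0422 with DESeq2 and 0.0457 with edgeR and no filter. Ugt8a had 39.7 to 64.4 CPM in old mice (median 55.4 CPM) and 53.7 to 73.5 CPM in young mice (median 65.5 CPM). Its difference was -0.26 (SE 0.085, edgeR adjusted p 0.169), with adjusted p-values from 0.105 to 0.35 over the other settings tried.

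Mbp, in contrast, had a median of 899.2 CPM over the old libraries (732 to 1011 CPM) and of 898.5 CPM over the young libraries (677 to 1214 CPM). Its log2 difference over both conditions was -0.06 (95% interval -0.25 to 0.14, edgeR adjusted p 0.81). That interval overlaps the 95% interval of Cldn11, -0.46 to -0.15. The difference between the 2 genes was not tested, since they were set apart after their values were seen. Measured against the mean log2 CPM of the other 8 genes in the same library, Cldn11 stood at -0.15 ± 0.074 in old and -0.02 ± 0.10 in young mice, and Mbp at 3.597 ± 0.17 in old and 3.44 ± 0.062 in young mice (SD, n = 6 libraries each). On this relative scale none of the 9 genes had old and young libraries that lay wholly apart, and 0.0139% of all genes lay apart on the lower side and 0.465% on the higher side.

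The interaction asks whether training changed a gene differently at the 2 ages. The training effect in old mice minus that in young mice was positive for 7 of the 9 genes, with a median of 0.18 and a range of -0.07 for Ugt8a to 0.40 for Opalin. The median was 0.042 when old conditioned library 63 was left out, 0.042 when young naive library 81 was and 0.048 when young conditioned library 73 was. Dropping young conditioned library 75 gave 0.32, and dropping young naive library 79 gave 0.33. No interaction reached an unadjusted p under 0.05, at which 3.6% of all genes lay in each direction, and none was called among the 9 or among all genes (0%). The adjusted p-values of the 9 were 0.81 or higher (edgeR), and DESeq2 called 1 gene of all and none of the 9. The 95% interval of Opalin, the widest of the 9, ran from -0.28 to 1.09.

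The 9 genes varied more between libraries of the same group than most genes with a mean of at least 10 CPM did. The SD of log2 CPM within groups had a median of 0.222 over the 9 genes, against 0.141 over all genes tested and 0.110 over the 9867 genes with a mean of at least 10 CPM. It was widest for Opalin (0.361) and narrowest for Cldn11 (0.152) and Mal (0.161). Among the 9867 genes, 76.2% had a lower SD than Cldn11 and 99.0% a lower SD than Opalin. The highest library exceeded the lowest by 1.60 times for Mal and by 2.04 times for Opalin.

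The 9 genes moved together from library to library. Young naive library 81 was the highest of all 12 for 7 genes, and young naive library 83 for Mal and Opalin. The 3 highest libraries of every gene included both of these. Within the young naive group, library 79 lay below the group mean for all 9 genes, by 0.32 log2 on average, while library 81 lay above it by 0.22 and library 83 by 0.10. Young conditioned mice were split the same way, with library 73 below the group mean for all 9 genes, by 0.23 on average, and library 75 above it for all 9, by 0.23. In old mice the largest mean deviations were 0.16 for conditioned library 63 and -0.12 for naive library 67. Over the 36 pairs of genes the median Pearson correlation across the 12 libraries was 0.835, a description with no test, since all genes share the libraries and their scaling. Mog followed the mean of the other 8 most closely (r = 0.968) and Ugt8a least (r = 0.688), and the lowest pair was Ugt8a with Mbp (r = 0.437).

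Marker genes of the ventricle wall varied along with them. The 16 choroid plexus genes, among them Ttr, the gene of the thyroid hormone carrier of cerebrospinal fluid, summed to 244 to 412 CPM in old conditioned, 422 to 3034 CPM in old naive, 246 to 3631 CPM in young conditioned and 492 to 4873 CPM in young naive mice. Of these markers, Kcne2 and Slc4a5 were at 0 in 1 library each. The median log2 difference of the 16 genes was -1.44 with training over both ages and -1.705 with age over both conditions. None passed the test in either (lowest edgeR adjusted p 0.711 and 0.125). At an unadjusted p under 0.05 (edgeR), 13 of the 16 were lower after conditioning, where 4.17% of all genes were. At that p, 16 of the 16 were lower in old mice, where 9.27% of all genes were. The ependymal list, ciliated cells lining the ventricles, had 9 of 10 genes in the count tables, of which 8 were tested. The 9 summed to 17.4 to 22.0 CPM in old conditioned, 25.7 to 31.7 CPM in old naive, 19.8 to 40.5 CPM in young conditioned and 23.9 to 57.9 CPM in young naive mice. None of the 9 was at 0 in any library. Young naive library 81 was the highest of the 12 in both lists as in the myelin genes, and young conditioned library 75 the second highest in both. The match was not complete: young conditioned library 73, the lowest in the mean of the myelin genes, had 1188 CPM of choroid plexus genes. Across the 12 libraries the 8 tested ependymal genes had a median correlation of 0.828 with the mean of the 9 myelin genes. The choroid plexus genes had one of 0.660, against -0.02 for all genes. CA1 and general neuronal markers had medians of -0.35 each. The 9 thalamus and habenula genes compared had one of 0.20. The mean log2 CPM of that list of 12 was also highest in young naive library 81 (2.97), followed by young conditioned library 75 (2.81). By summed CPM, old conditioned library 65 came second (271 CPM).

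With the mean of the choroid plexus genes as a covariate, the median training difference of the 9 genes was -0.22 in young mice, -0.0062 in old mice and -0.14 over both ages. The median age difference over both conditions became -0.08, with Cldn11 at -0.21, Mal at -0.20 and Ugt8a at -0.18. Without young naive library 81 and old conditioned library 61, the medians were -0.13 for training over both ages and -0.09 for age over both conditions. In the mean of the 9 genes, library 81 was the highest of its group and library 61 the lowest of its own. Leaving out this pair therefore raises both mean differences by construction. Nuclear-retained RNAs such as Malat1, a sign of the share of nuclear RNA, had a median log2 difference of -0.43 with age over both conditions, and none of the 7 passed the test (lowest edgeR adjusted p 0.108). At an unadjusted p under 0.05 (edgeR), 6 of the 7 were lower in old mice, where 9.27% of all genes were. The ranges of their sums overlapped, with 7854 to 13740 CPM in old conditioned and 13440 to 16920 CPM in young conditioned mice, and 8985 to 15470 CPM in old naive and 10010 to 21200 CPM in young naive mice. With their mean as a covariate, the median age difference was -0.23. How much of the fibre tracts and ventricle wall was taken with each hippocampus is not given by the labels, and its part in the differences was not tested beyond these fits.

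**Figure D3:**
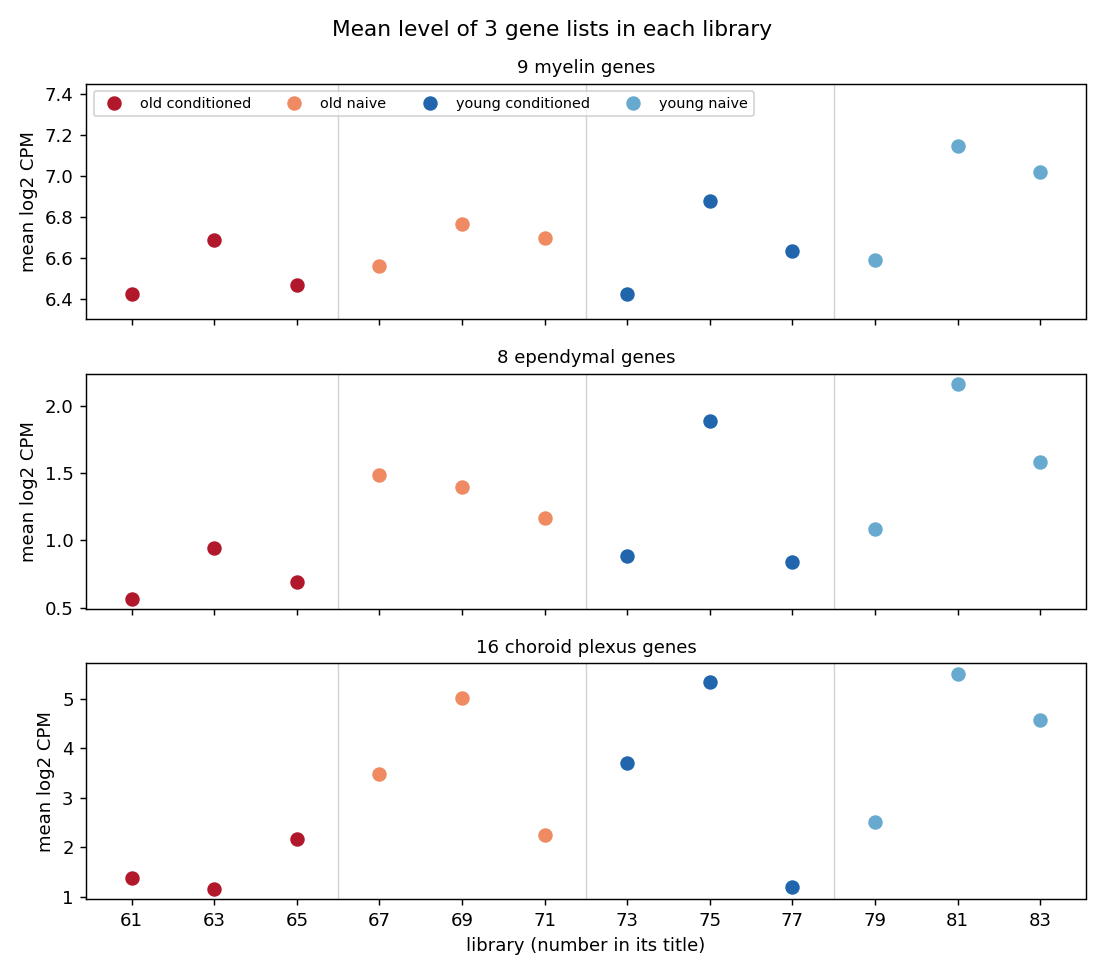
Mean log2 CPM of the 9 myelin genes, 9 ependymal genes and 16 choroid plexus genes (3 panels with their own axes, none starting at 0) in each of the 12 libraries, coloured by group and ordered by title number. The title of the ependymal panel counts the 8 genes that were tested, while the points average 9. Young naive library 81 is highest in all panels and young conditioned library 75 is the second highest of the ventricle lists, and all 3 old conditioned libraries lie below all 3 old naive libraries in both ventricle lists.

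The remainder of the oligodendrocyte programme was read from lists of other genes. Of 28 further myelin membrane, junction and cytoskeleton genes, 0 passed the test in either direction in any comparison. In young mice all 28 were lower after conditioning, with a median of -0.25, and 11 of 28 had an unadjusted p under 0.05 on the lower side, where 3.18% of all genes did. In old mice 20 of 28 were lower, with a median of -0.06, and 2 of 28 had such a p, where 3.69% of all genes did. With age over both conditions 20 were lower, with a median of -0.05, and 18 of 28 were higher in old than in young conditioned mice. Tppp, which encodes a tubulin-binding protein that neurons express too, had a log2 difference of 0.02 with training and of 0.05 with age, and Plekhb1 had -0.14 and 0.12. The gene of this list nearest to the threshold, picked after its values were seen, was the tetraspanin gene Tspan2, at -0.33 (SE 0.077, edgeR adjusted p 0.0686) with age.

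Genes that make the cholesterol of the sheath had positive medians. Of 16 cholesterol synthesis genes, 14 were higher after conditioning over both ages, with a median log2 difference of 0.10, and 14 were higher in old mice, with a median of 0.06. None passed the test in any comparison. Hmgcs1, an enzyme at the entry of the mevalonate pathway, had 0.12 (SE 0.040, edgeR adjusted p 0.71) with training and 0.07 (SE 0.040, edgeR adjusted p 0.44) with age. Neurons and astrocytes make cholesterol as well, so this list does not belong to oligodendrocytes alone. The 9 sphingolipid and galactolipid genes had medians of -0.09 with training and of -0.09 with age, with Degs1, Cers2 and Galc, the 3 with the highest level, between -0.12 and 0.02.

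Lists for the stages of the lineage also held no called gene in any comparison. The 11 transcription factors had a median of -0.11 with training and of 0.04 with age over the pooled groups. Zfp488, the one with the highest CPM, had -0.27 (SE 0.20, edgeR adjusted p 0.83) with training and -0.58 (SE 0.20, edgeR adjusted p 0.189) with age. Myrf, which switches on myelin genes, had -0.16 (SE 0.065) with training and 0.04 with age, and Olig1 -0.14 (SE 0.078) and 0.05. The 10 precursor genes had medians of -0.03 and -0.09, with Pdgfra, the receptor that drives precursor division, at -0.04 and -0.04, and Gpr17, a receptor of committed precursors, at 0.06 and -0.34 (SE 0.11, edgeR adjusted p 0.166). All 7 genes of newly formed oligodendrocytes were lower in old mice and after conditioning in the pooled comparisons, with medians of -0.18 in both. Of 8 genes of late mature oligodendrocytes, 7 were lower after conditioning and 6 were higher in old mice, with Qdpr at -0.07 and 0.02, Ptgds at 0.18 and -0.39 (SE 0.094, edgeR adjusted p 0.0759) and Apod at -0.11 and 0.09.

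Among the 10 genes whose pattern over the 12 libraries was most like the mean log2 CPM of the 9, out of 13832 genes with a mean of at least 1 CPM, were Kif9 (Pearson r 0.933), Dock5 (0.927), Hdc (0.925), Gjc3 (0.922), Cd9 (0.922), Prkcq (0.921), Dnah7b (0.920), Phldb1 (0.919) and Slc44a1 (0.918). Gjc3 and Cd9 stood on the list of further myelin genes and Dock5 on that of late oligodendrocytes. Kif9, Hdc, Prkcq, Dnah7b, Phldb1 and Slc44a1 stood on none of the lists used here. When the group mean was first taken from every value, 2 of the 10, Phldb1 among them, remained among the 10 most alike, and the others were Atp11a, Clic4, Sept4, Optn, Galnt6, Trf, Dnah6 and 2210016F16Rik. These values describe shared variation among the same 12 libraries and carry no p-value.

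H2A.Z replaces ordinary H2A in nucleosomes that often flank active or poised start sites, and the study asked how its binding shifts with learning and age. The authors' deposited table lists consensus peaks (mm10) and a log2 fold for each comparison of groups, but no values per library. Folds were deposited as naive minus conditioned and young minus old, and the opposite sign is used here. Of the 8 peaks, 6 lay within 1 kb of the start of 5 genes, namely Mbp, Cnp, Cldn11, Mal and Ugt8a. Ugt8a had 2, at chr3:125937721-125938670, over its 5′ untranslated region, and at chr3:125938779-125939212 upstream of it. The Cnp peak lay at chr11:100574760-100575476, that of Cldn11 at chr3:31149696-31150316, that of Mal at chr2:127656057-127656766 and that of Mbp in its 5′ untranslated region, 474 bp from the start. The other peaks lay inside genes, in an exon of Mag 5712 bp from the start site the table names (chr7:30908933-30909307) and in an exon of Mobp 18601 bp from its start (chr9:120168103-120168580). Mog and Opalin had no peak in the table.

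Sequences before the start sites are shown for 4 of the genes with a promoter peak and for the 2 without any peak, because they differ in CG dinucleotides, here in capitals. Each run is the 250 bases before the start site of the RefSeq annotation on GRCm38.p6, read 5′ to 3′ on the gene's strand. The coordinates are chr11:100574689-100574938 (plus strand) for Cnp, chr3:31149670-31149919 (plus) for Cldn11, chr2:127656696-127656945 (minus) for Mal, chr3:125938653-125938902 (minus) for Ugt8a, chr17:37023399-37023648 (minus) for Mog and chr19:41077114-41077363 (minus) for Opalin.
Ugt8a: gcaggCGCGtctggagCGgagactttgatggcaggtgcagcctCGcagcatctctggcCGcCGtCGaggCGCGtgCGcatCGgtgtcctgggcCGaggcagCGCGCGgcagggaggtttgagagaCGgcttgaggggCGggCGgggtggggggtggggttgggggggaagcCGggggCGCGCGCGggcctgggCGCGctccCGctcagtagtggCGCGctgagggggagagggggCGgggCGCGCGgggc
Cldn11: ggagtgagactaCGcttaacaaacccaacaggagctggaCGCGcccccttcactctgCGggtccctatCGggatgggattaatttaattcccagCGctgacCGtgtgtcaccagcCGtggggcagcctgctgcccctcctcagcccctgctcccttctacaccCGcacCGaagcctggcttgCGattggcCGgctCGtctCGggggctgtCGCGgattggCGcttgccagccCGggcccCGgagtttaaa
Cnp: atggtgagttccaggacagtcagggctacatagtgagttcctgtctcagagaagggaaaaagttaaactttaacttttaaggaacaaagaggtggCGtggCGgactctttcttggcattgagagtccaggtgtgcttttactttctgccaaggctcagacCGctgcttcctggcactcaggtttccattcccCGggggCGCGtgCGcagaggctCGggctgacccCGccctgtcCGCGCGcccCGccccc
Mal: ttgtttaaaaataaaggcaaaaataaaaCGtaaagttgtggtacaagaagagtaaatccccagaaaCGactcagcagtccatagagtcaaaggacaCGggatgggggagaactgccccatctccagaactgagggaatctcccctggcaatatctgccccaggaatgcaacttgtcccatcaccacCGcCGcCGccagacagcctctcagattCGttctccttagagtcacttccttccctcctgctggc
Opalin: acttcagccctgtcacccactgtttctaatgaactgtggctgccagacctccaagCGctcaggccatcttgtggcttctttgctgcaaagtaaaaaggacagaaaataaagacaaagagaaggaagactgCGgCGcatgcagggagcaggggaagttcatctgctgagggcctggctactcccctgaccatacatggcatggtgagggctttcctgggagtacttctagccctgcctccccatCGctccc
Mog: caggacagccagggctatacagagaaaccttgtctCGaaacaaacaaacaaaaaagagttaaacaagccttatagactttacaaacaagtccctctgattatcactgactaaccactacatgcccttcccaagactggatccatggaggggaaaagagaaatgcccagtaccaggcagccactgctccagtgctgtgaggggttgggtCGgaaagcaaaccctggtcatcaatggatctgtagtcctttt
The Ugt8a stretch holds 32 CG dinucleotides, that of Cldn11 19, that of Cnp 13 and that of Mal 7. Opalin has 4 and Mog 2. Over the 32851 promoters of the same length in the RefSeq table, the median was 16 for the 11207 of genes with an H2A.Z peak within 1 kb and 3 for the 21644 others. Cnp and Mal lie below the median of promoters with a peak, while Mog and Opalin lie near that of promoters without one. The H2A.Z peak covers 224 of the 250 bases of Cldn11, 179 of Cnp, 142 of Ugt8a (both peaks together) and 71 of Mal.

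These stretches were also searched on both strands for motifs of factors that act in oligodendrocytes. ACAAAG, a SOX-type motif, occurs once before Cnp and once before Opalin, and 16.5% of all promoters hold it. CTGGNAC, the core bound by MYRF, occurs 2 times before Cnp and 1 time before Mog, and 16.1% of all promoters hold it. AACAAT, another SOX-type motif present in 9.42% of promoters, and TATAAA, present in 12.4%, occur in none of the 6. The E-box CANNTG occurs once each before Cnp, Opalin and Ugt8a, against 66.2% of all promoters. No matches of different motifs shared bases in these 6 stretches, and a match describes letters only.

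Other columns of the authors' table place each peak against regions of 4 histone marks. The tissue these regions came from is not stated in the labels or the table. All 6 promoter peaks overlapped a region of H3K4me3, a mark of start sites, as did 93.8% of the 12204 peaks within 1 kb of a start site. None of the 6 overlapped H3K27ac, a mark of active elements, against 66.8% of those 12204 peaks. H3K27me3, a mark of Polycomb repression, overlapped 5 of the 6, all but Cnp, against 34.8%. Of the peaks inside genes, that of Mag overlapped H3K4me3 and H3K4me1 and that of Mobp none of the 4 marks. These are counts of 6 and 8 regions, given without a test.

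After conditioning, H2A.Z was lower over most peaks of the genome, and the medians of the myelin gene peaks lay close to those of all peaks. The median log2 fold of the 8 peaks, conditioned minus naive, was -0.90 in old mice and -0.45 in young mice in the authors' deposited table, against -0.93 and -0.57 over all 20213 peaks. By the deposited levels the median in old mice was -1.11, against -1.15 over all peaks. Of the 8 peaks, 7 were lower after conditioning in old mice and 6 in young mice, and over all peaks 87.3% and 81.1% were lower. None passed the authors' FDR of 0.05 in either comparison, where 10.7% of all peaks did in old mice and 13.3% did in young mice. At the authors' unadjusted p under 0.05 there was 1 of the 8 in each, against 30.1% of all peaks in old and 26.9% in young mice.

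The lowest fold belonged to the upstream Ugt8a peak, at -1.67 in old mice (authors' p 0.0716, FDR 0.205) and -1.10 in young mice (authors' p 0.0804, FDR 0.249) in the deposited table. The Ugt8a peak at the start had -1.10 in old mice (authors' p 0.0473, FDR 0.161) and -0.87 in young mice (FDR 0.358). Its group levels, log2 mean reads as the authors gave them, were 6.21 in old conditioned, 7.52 in old naive, 5.75 in young conditioned and 6.62 in young naive mice. The deposited table's folds for Cnp were -1.06 in old and -0.82 in young mice, and those for Mbp -0.96 and -0.48. Cldn11 had -0.84 in old and -0.12 in young mice, and Mal -0.59 and 0.0031.

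The Mobp peak went the other way. Its fold, conditioned minus naive, was 2.05 in young mice (authors' p 0.0128, FDR 0.0776) and 0.83 in old mice (authors' p 0.417, FDR 0.56) in the authors' deposited table. It was called in 2 of 3 old conditioned, 1 of 3 old naive, 1 of 3 young conditioned and 0 of 3 young naive libraries, 4 of 12 in all, the fewest of the 8 peaks. Its deposited levels were 4.17 in old conditioned, 3.56 in old naive, 4.47 in young conditioned and 2.41 in young naive mice. The Cnp and Mbp peaks, by comparison, were called in all 12 libraries.

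With age, the 8 peaks had a median fold, old minus young, of 0.40 in naive and -0.29 in conditioned mice in the authors' deposited table, against 0.33 and 0.09 over all peaks. The promoter peaks among them had medians of 0.40 and -0.13, against 0.44 and 0.10 over the 12204 peaks within 1 kb of a start site. Differences of the authors' deposited levels, which are offset from the folds, gave medians of 0.74 in naive and -0.18 in conditioned mice for the 8 peaks, against 0.67 and 0.21 over all peaks, and Mbp in conditioned mice then had 0.046 in place of -0.072. None of the 8 and none of all 20213 peaks passed the authors' FDR of 0.05 in either age comparison (0%), and at the authors' unadjusted p under 0.05 there were also 0 of the 8, against 12.1% of all peaks in naive and 0.554% in conditioned mice. By the folds, in naive mice 7 of the 8 were higher in old animals, from 0.17 for the upstream Ugt8a peak to 0.84 for Cnp, and Mag had -0.47. Most peaks of the genome were higher in old naive mice too, with 21.2% of all peaks lower. In conditioned mice 6 of the 8 were lower in old animals, against 41.0% of all peaks. The naive and conditioned groups enter these comparisons and those of training alike, so the folds are not independent of each other.

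**Figure D4:**
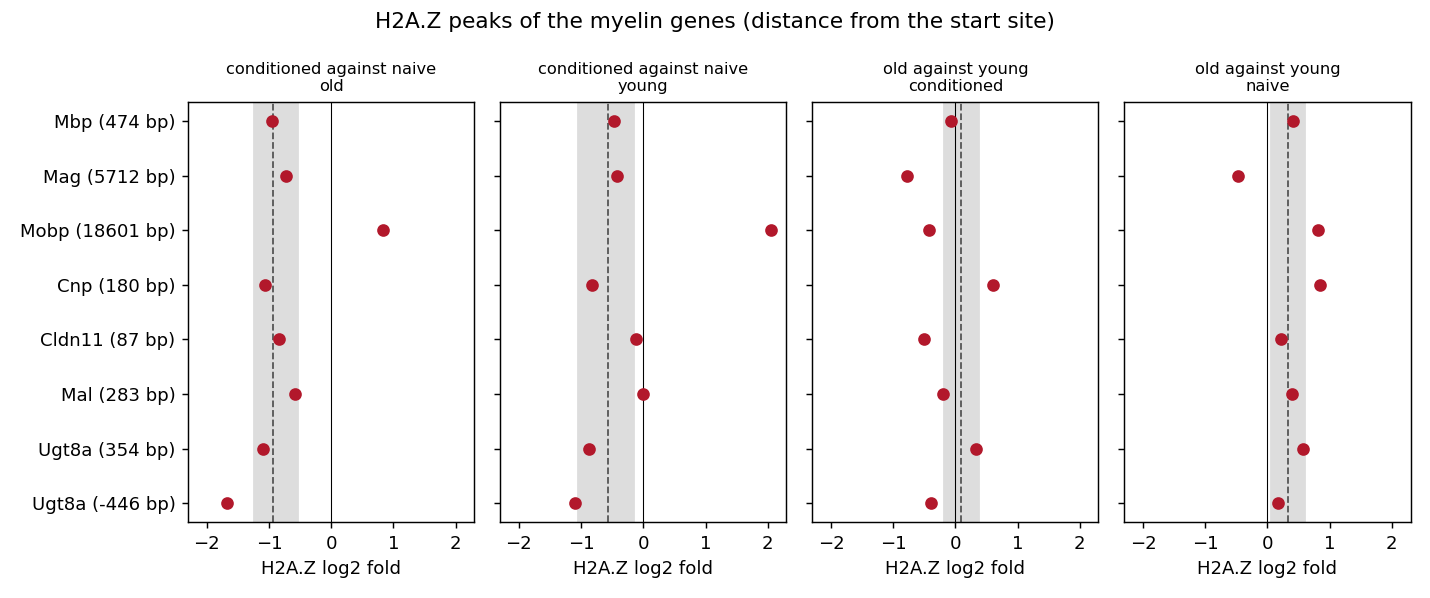
Authors' deposited H2A.Z log2 folds (horizontal axes, with conditioned and old mice as the first term) of the 8 peaks, labelled by gene and distance from the start site. Dashed lines mark the median and grey bands the middle 50% of all 20213 peaks; most points lie in or near the bands, with Mobp to the right after training at 2.05 in young and 0.83 in old mice.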

How the data were processed

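RNA was sequenced in 12 hippocampal libraries and H2A.Z mapped in 12 more, 3 for each of 4 groups taken from the labels. The 12 input libraries were not analysed here. The genes and the lists were chosen with earlier results of these data known.

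The RNA tables deposited by the authors hold raw read counts, 1 whole number per gene symbol and library. The deposited H2A.Z table gives, per consensus peak, log2 folds and log2 mean levels of groups with the authors' p-value and FDR. Groups written T in that table were read as conditioned, since N was read as naive. Folds and differences of levels differ by a constant per comparison, which on the log2 scale is 0.215 (training, old), 0.0 (training, young), 0.334 (age, naive) and 0.118 (age, conditioned). Distances to genes and marks and the number of libraries with a call, other columns of whole counts, are the authors' as well. Per the submitters' processing notes, tools included TopHat, HTSeq 0.6.1p2, Bowtie2 2.2.1, MACS2 2.0.10, DiffBind 1.12.2 and edgeR 3.8.6, on mm9 and mm10. Which build, annotation or strand setting served the RNA counts is not given in these sources. Cnp shares bases with Dnajc7 in RefSeq, and Mbp and Ugt8a with non-coding genes, so reads of these cannot be told apart without strand.

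Tests on counts used edgeR 4.0.16 in R 4.3.3 (TMM scaling, filterByExpr, 1 quasi-likelihood fit of 4 groups, Benjamini-Hochberg adjustment over 14405 genes at 0.05). Tests covered training at each age and over both, age in each condition and over both, and their interaction. The fit was tested on simulated data in which each gene was drawn on its own. Variation shared by genes from library to library was therefore not covered. Log2 CPM carries a prior count of 2, and intervals are at 95%. Replicates differed by more than sampling noise in a chi-square test of their counts. The table of H2A.Z holds no values per library and was described without a test. A peak within 1 kb of a start site was called a promoter peak. Promoter sequences came from RefSeq on GRCm38.p6 and matched 8 of the 9 genes.

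All 9 genes are reported in every comparison. Of each list of other oligodendrocyte genes, those past the threshold are named, or else the 3 with the highest mean CPM. The 10 genes most like the members were taken by Pearson correlation. Some genes that these rules pick are not reported here. Outside this rule, Tspan2, the comparison of Cldn11 with Mbp and the sorting of the 9 genes by age difference in each condition were chosen after their values were seen. Alternatives were DESeq2 1.42.0 with its size factors, upper-quartile factors, no filter, a filter of 1 CPM in 3 libraries, fits on the libraries of a comparison alone, covariates for choroid plexus and nuclear-retained RNA, and leaving out libraries. Python 3.11.15 with pandas 2.3.3 and matplotlib 3.10.9 served for the rest.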

Additional observations from a re-analysis of the deposited data

How the results depend on the processing

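No paired analysis was possible because each RNA library has a title number of its own and groups share none. Of the 63 single-gene differences in the 7 comparisons, recomputed under 1233 combinations of gene and setting, 1184 kept their direction and their side of the threshold, 5 passed the threshold and 44 changed sign, and none of these 44 was a called difference. The number of the 9 genes called for age over both conditions was 0 in the fit reported and 0 under upper-quartile factors, the filter of 1 CPM in 3 libraries, both covariates and the fit without young naive 81 and old conditioned 61, but 2 (Cldn11 and Mal) with DESeq2 and 2 (the same genes) without the filter. Leaving out 1 library at a time gave 0 to 1, the 1 being Cldn11 without young naive library 79. It was 0 in the other 6 comparisons under every setting tried. The cause was not tested. Without a filter, every gene with a count in any library was tested, and genes with no count at all were left out.

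Sign changes were as follows. For training in old mice, the choroid plexus covariate gave 0.12 for Mag, 0.10 for Cnp, 0.026 for Cldn11 and 0.11 for Opalin, and leaving out young naive 81 and old conditioned 61 gave 0.010 for Opalin. For age in conditioned mice, the choroid plexus covariate gave 0.021 for Mog, 0.17 for Mag, 0.0085 for Mobp and 0.11 for Cnp. There, leaving out the 2 libraries gave -0.030 for Mbp, 0.0033 for Mog and 0.014 for Mag, and the nuclear RNA covariate gave -0.067 for Mbp. For age over both conditions, the choroid plexus covariate gave 0.023 for Mbp and 0.00094 for Mag. For the interaction, leaving out the 2 libraries gave -0.11 for Mobp and 0.015 for Ugt8a, and the choroid plexus covariate gave 0.025 for Mal. Leaving out 1 library at a time gave ranges that crossed 0 for training in old mice (Opalin -0.33 to 0.071, Cnp -0.17 to 0.000303), for age in conditioned mice (Mbp -0.077 to 0.16, Mog -0.28 to 0.018, Mag -0.14 to 0.15, Opalin -0.23 to 0.17, Mobp -0.25 to 0.014, Cnp -0.15 to 0.064), for age over both conditions (Mbp -0.13 to 0.0019) and for the interaction (Mal -0.14 to 0.10, Ugt8a -0.17 to 0.065, Mobp -0.096 to 0.27, Cldn11 -0.018 to 0.18). The median of the 9 genes for age in conditioned mice ranged from -0.25 to 0.02 in the same way and was 0.02 with the choroid plexus covariate, and the medians of the other comparisons kept their sign under every setting. Without young naive 81 and old conditioned 61 the median interaction was 0.023.

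Counts over all genes moved more. They were 4, 2 and 11 for training in young mice, in old mice and over both ages, and 7, 9 and 19 with DESeq2. For age in naive mice, in conditioned mice and over both conditions they were 8, 5 and 54, against 39, 97 and 228 with DESeq2. Leaving out 1 library gave 0 to 16, 0 to 8, 7 to 30, 1 to 22, 2 to 7 and 13 to 391 in the same order. The remaining settings gave 0 to 8 and 0 to 9 for training in young and old mice, 7 to 18 over both ages, 1 to 32 and 2 to 7 for age in naive and conditioned mice, and 27 to 262 over both conditions. A promoter distance of 3 kb in place of 1 kb left the number of promoter peaks at 6, and an FDR of 0.01 left the number of called peaks at 0. With the fewest counts of the 9 genes, 113 to 257 a library, Opalin also had the widest SD within groups, and the part of depth in it was not tested.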
